A study of Mchenga conophoros and Petrotilapia sp. 'chitimba' with 16 samples.

Results

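The libraries described here come from Petrotilapia sp. 'chitimba' (PC), a rock-dwelling cichlid, and ask which brain transcripts were recovered with ribosomes carrying phosphorylated protein S6. They are the 4 immunoprecipitated (IP) libraries of PC fish 11, 12, 23 and 24, set against the 4 input libraries of the same fish, and they make up 8 of the 16 libraries and 4 of the 8 fish of the series. The rule for choosing them used the species and the fish number in the labels and no measured value. All fish were adult males, and every library was made from a whole brain. Fish 12 and 23 had spent 15 min with a mirror in their home tank, fish 11 and 24 were controls, and all brains were taken after 90 min. Fish 11 and 12 belong to batch a, fish 23 and 24 to batch b, and each batch was collected and processed on 1 day. The input of a fish is total RNA of its cleared brain lysate, and the IP is the RNA pulled down from that lysate with an antibody against phosphorylated S6. The remaining fish of the series are 4 adult males of Mchenga conophoros (MC), 2 mirror and 2 control fish treated in the same way, and they are used here only to test where PC differs.

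Protein S6 sits in the small subunit of cytosolic ribosomes, and kinases of the mTOR and MAP kinase pathways phosphorylate it when a neuron has fired. Pulling down such ribosomes (PhosphoTRAP) recovers messenger RNA that is being translated, weighted towards cells that were active. RNA inside mitochondria is translated by separate ribosomes that contain no S6, and many support cells carry little phosphorylated S6, so both kinds of transcript serve in such experiments as a check on what the beads retain.

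The IP libraries held 4250470 to 11186928 counts and the inputs 10940859 to 23594320, with the deepest inputs in both mirror fish. The IP libraries of fish 11, 12, 23 and 24 had a count at 9378, 10348, 6323 and 10466 of 61384 assembled loci, and the inputs at 32319, 34667, 33231 and 33091. The groups did not overlap, and IP libraries averaged 9129 ± 1933 loci against 33327 ± 979 in input (SD, n = 4 each). An exact sign-flip test over the 4 fish, two-sided, gave p = 0.13, which is the smallest value that 4 fish allow, and an adjusted p of 0.161 over 18 library measures. At equal totals of 4250470 counts the IP libraries still had 5884 to 10466 loci and the inputs 29197 to 31194. Fish 23 had the deepest IP library and the fewest loci in it.

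**Figure D1:**
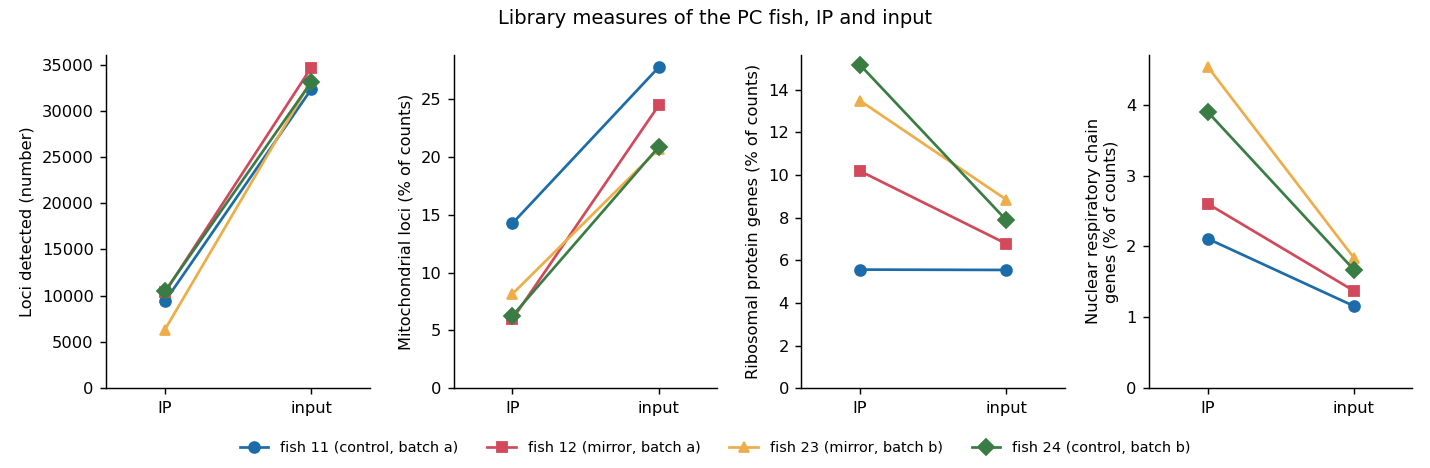
Number of loci with a count, and the percentage of all counts on mitochondrial loci, on 68 cytosolic ribosomal protein genes and on 44 nuclear respiratory chain genes, in the IP (left) and input (right) library of each PC fish. Lines join the libraries of a fish. All 4 fish had fewer loci and a smaller mitochondrial share in IP, and a larger respiratory chain share.

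Detection in IP followed the level of a transcript in input. Levels are in CPM, counts scaled to a common library total. Loci with a mean of 10 to 30 CPM in input had a count in 49.0%, 55.3%, 29.9% and 55.0% of cases in the IP libraries of fish 11, 12, 23 and 24. At 100 to 300 CPM these shares were 97.8%, 99.1%, 88.9% and 98.7%. Fish 23 was the lowest at each of these levels. Every input held a count at 23127 loci, and at 8609 of these no IP library did. With a floor of 3 counts per library, a locus at 0 could still have reached 0.268 to 0.706 CPM in IP, depending on the fish, against 0.127 to 0.274 CPM for the inputs, and these limits cover counting error only, since reads copied by PCR are not independent molecules.

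**Figure D2:**
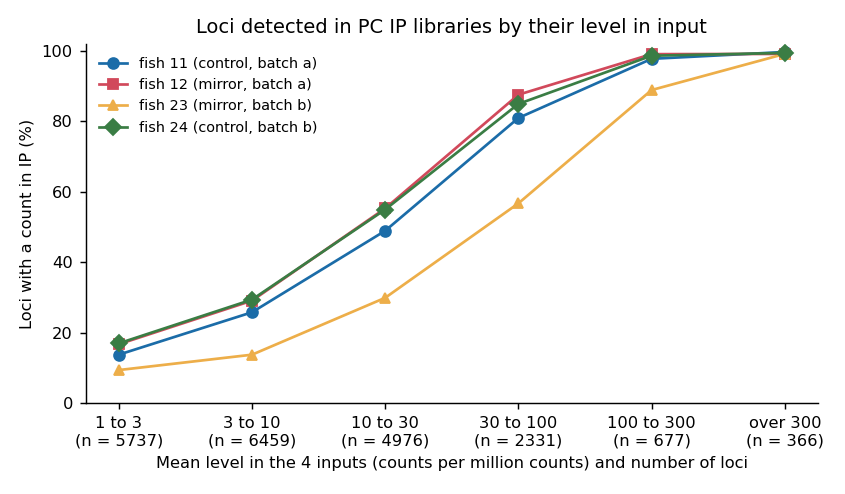
Percentage of loci with at least 1 count in each PC IP library, by their mean level in the 4 inputs, with the number of loci per level. Nearly all loci above 300 CPM were seen in every IP library, and at 30 to 100 CPM the share was 56.8% in fish 23 and 81.0% to 87.6% in the other 3 fish.

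Fold changes are therefore given for 697 abundant loci, those with a mean log2 CPM above 7 over the 8 libraries, which took 70.7% to 77.0% of the counts in IP and 64.3% to 71.1% in input. Of these, 362 carry a gene symbol and 293 only a locus number. Each fold change is the log2 ratio of IP over input within a fish, relative to the abundant loci as a whole, and has an adjusted p from edgeR's quasi-likelihood test over all 697. Levels of these loci are given as scaled CPM, that is, CPM of the counts on these 697 loci alone after TMM scaling, and the 4 values of a fraction are always in the order fish 11, 12, 23 and 24. IP and input of a fish come from the same lysate of a whole brain, and thus from the same cells. Which of these cells a transcript came from cannot be told. Between fish, fewer cells of a type and less of its RNA per cell cannot be told apart.

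Past an adjusted p of 0.05 there were 124 of 697 loci (17.8%), of which 61 were higher in IP (8.75%) and 63 lower (9.04%). All 61 higher loci were higher in 4 of 4 fish, and 60 of the 63 lower loci were lower in 4 of 4. Whether or not they passed, 195 loci (28.0%) had 4 IP values that did not overlap with the 4 input values, 103 of them higher and 92 lower in IP. When size factors came from all tested loci, the median log2 fold change over the abundant loci was 0.19, against -0.06 here, and the calls were 100 higher and 36 lower. Every direction given below is relative to that centre, and none of the gene list medians changed sign under this scaling. The calls depended most on fish 24. Without it none of the 697 passed (172 had an unadjusted p under 0.05), and the 60 called genes with a symbol then had adjusted p from 0.0736 to 0.212 in the same directions. Of these 60, 45 still passed without fish 11, 31 without fish 12 and 39 without fish 23. There were 58 calls without fish 12, 80 without fish 23 and 120 without fish 11. Batch b alone gave 38 calls, and batch a alone gave 0, with 170 at an unadjusted p under 0.05. With abundance set by the inputs alone, 42 of the 60 were kept and 12 lost. Rab3c, eif5b, mrps18c, rnf208, polr2k and eif3j then lay below the minimum. They were thus among the abundant loci only through their IP levels, which are high.

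**Figure D3:**
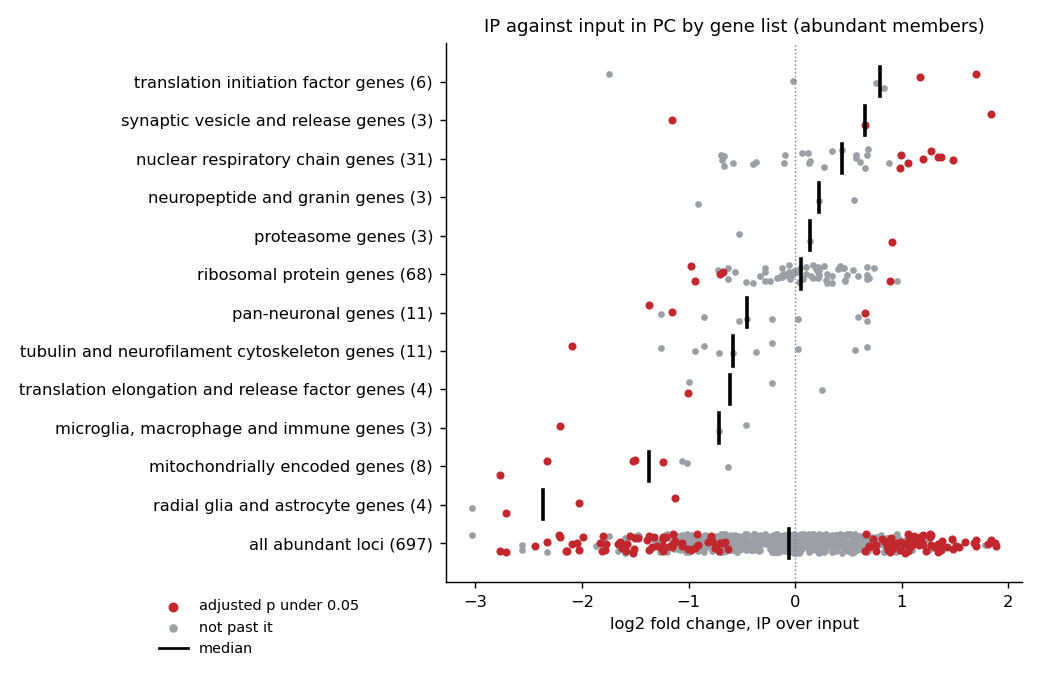
Log2 fold change of IP over input in PC for the abundant members of gene lists with 3 or more such members (number in brackets), and for all 697 abundant loci. Each point is a gene, red where its adjusted p was under 0.05, and the black bar is the median. Mitochondrially encoded and glial genes lie at the low end, and nuclear respiratory chain and initiation factor genes have medians above 0.

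Transcripts of the mitochondrial genome were lower in IP. All 8 measured protein-coding members, which encode subunits of respiratory complexes made inside the organelle, had lower values in IP in 4 of 4 fish. Of the 8, 5 passed the test (62.5% called, against 17.8% over all abundant loci). The median log2 fold change was -1.37 over the 8, against -0.06 over all abundant loci. ND5, a complex I subunit, had 3971, 1171, 606 and 453 scaled CPM in IP, against 12932, 6625, 4935 and 6537 in input. The groups did not overlap, and its log2 fold change was -2.77 ± 0.38 (SE, n = 4 fish; adjusted p = 0.0106). ND6, a neighbouring complex I gene read from the opposite strand, had 1563, 465, 170 and 175 scaled CPM in IP and 3381, 1797, 1422 and 1567 in input. Here the IP value of fish 11 lay above the inputs of fish 23, although each fish was lower in IP than in its own input (-2.33 ± 0.37, adjusted p = 0.0114). ND4L (-1.52 ± 0.19, adjusted p = 0.0106), ND3 (-1.51 ± 0.24, adjusted p = 0.0114) and ND2 (-1.23 ± 0.32, adjusted p = 0.0366) passed as well, ND2 not without fish 23 (adjusted p = 0.104). COX1, the catalytic subunit of cytochrome c oxidase, stood at 20414, 18578, 19225 and 18670 scaled CPM in IP and at 49451, 41509, 33472 and 37939 in input. Its groups did not overlap either, but it did not pass (-1.06 ± 0.42, adjusted p = 0.0994), nor did CYTB of complex III (-1.02 ± 0.29, adjusted p = 0.0504) or ND1 (-0.63 ± 0.32, adjusted p = 0.192).

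Over the whole mitochondrial sequence, the share of all counts was 14.3%, 5.96%, 8.15% and 6.26% in IP, against 27.8%, 24.5%, 20.7% and 20.9% in input. Every IP value lay below every input value, with the same exact sign-flip p of 0.13. Most of this came from the locus tagged APK84_gr01, a mitochondrial ribosomal RNA by the form of its tag, at positions 1085 to 2776 of that sequence. It held 10.6%, 1.94%, 3.56% and 1.98% of the counts in IP and 19.3%, 17.2%, 13.5% and 12.9% in input. Fish 11 kept far more of it in IP than the other 3 fish did, and fish 11 also had the highest mitochondrial share in input. On the opposite strand an assembled locus at positions 574 to 1891 had 0 counts in every IP library and 171551, 163450, 288076 and 147365 in the inputs, although the facing ribosomal RNA locus had 84268 to 738566 counts in IP. Whether the counting used the strand of the reads is not given in the sources used here, so reads of overlapping loci on opposite strands may have been split differently between libraries.

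Among nuclear genes of the respiratory chain, 44 were matched and 31 were abundant, 23 of complex I, 7 of ATP synthase and 1 of complex II. No nuclear gene of complex III or IV was among those matched, so the list does not speak for these complexes. Of the 31, 8 passed as higher in IP and none as lower (25.8% called, against 17.8% over all abundant loci). The median log2 fold change was 0.44, with 22 values above 0. The abundance minimum is a mean over IP and input, so members low in IP were less likely to be among the 31. The 8 were 6 of 23 genes of complex I, the proton-pumping NADH dehydrogenase (median 0.57), and 2 of 7 ATP synthase genes (median 0.06). All but 1 of the 31 tested genes belong to these complexes. Among them, ndufa2, an accessory subunit of complex I, had 2819, 3365, 4179 and 4023 scaled CPM in IP and 1403, 1485, 1615 and 1392 in input. The lowest IP value was well above the highest input (log2 fold change 1.27 ± 0.18, adjusted p = 0.0106). Atp5f1e, the epsilon subunit of ATP synthase, had 4910, 4942, 5327 and 4540 scaled CPM in IP and 2145, 2139, 2300 and 1990 in input. Its within-fish differences were 1.19 to 1.21 on the log2 scale, close to equal in all 4 fish. The fold change was 1.20 ± 0.18 (adjusted p = 0.0114), with an SE from the fit, which is not the spread between these fish.

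The other complex I genes that rose were ndufc1 (1.48 ± 0.25, adjusted p = 0.0114) and ndufa1 (1.36 ± 0.22, adjusted p = 0.0114), together with ndufa5 (1.06), ndufb2 (0.99) and ndufa13 (0.99), the last 3 named after their values were seen. Atp5mf, a membrane subunit of ATP synthase, rose by 1.34 ± 0.20 (adjusted p = 0.0114). Without fish 12 the call of ndufb2 was lost (adjusted p = 0.0506), and without fish 23 that of ndufa13 (adjusted p = 0.0718). Values below 0 that did not pass were found for ndufb9 (-0.68 ± 0.36) and ndufab1 (-0.70 ± 0.33) of complex I and atp5f1c (-0.67 ± 0.47) of ATP synthase, and for sdhc, the complex II gene, which was lower in IP in 4 of 4 fish (-0.66 ± 0.34, adjusted p = 0.191). Complex I genes below the abundance minimum went both ways by CPM of all counts. Ndufb5, ndufs7 and ndufs8 were lower in IP in every fish, while ndufs3 was higher in fish 11, 23 and 24. These were named after their values were seen. The share of all counts on the 44 genes was 2.11%, 2.60%, 4.54% and 3.90% in IP and 1.16%, 1.37%, 1.84% and 1.67% in input, without overlap. Outside these lists, atp5md, which associates with ATP synthase, and sdhaf4, an assembly factor of complex II, were also among the calls (0.69 ± 0.18 and 0.89 ± 0.23, both with an adjusted p of 0.0366). Their calls were lost without fish 12 (adjusted p = 0.158 for atp5md and 0.0839 for sdhaf4), that of atp5md also without fish 11 (0.0583) and that of sdhaf4 without fish 23 (0.0826), and they were named after their values were seen.

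**Figure D4:**
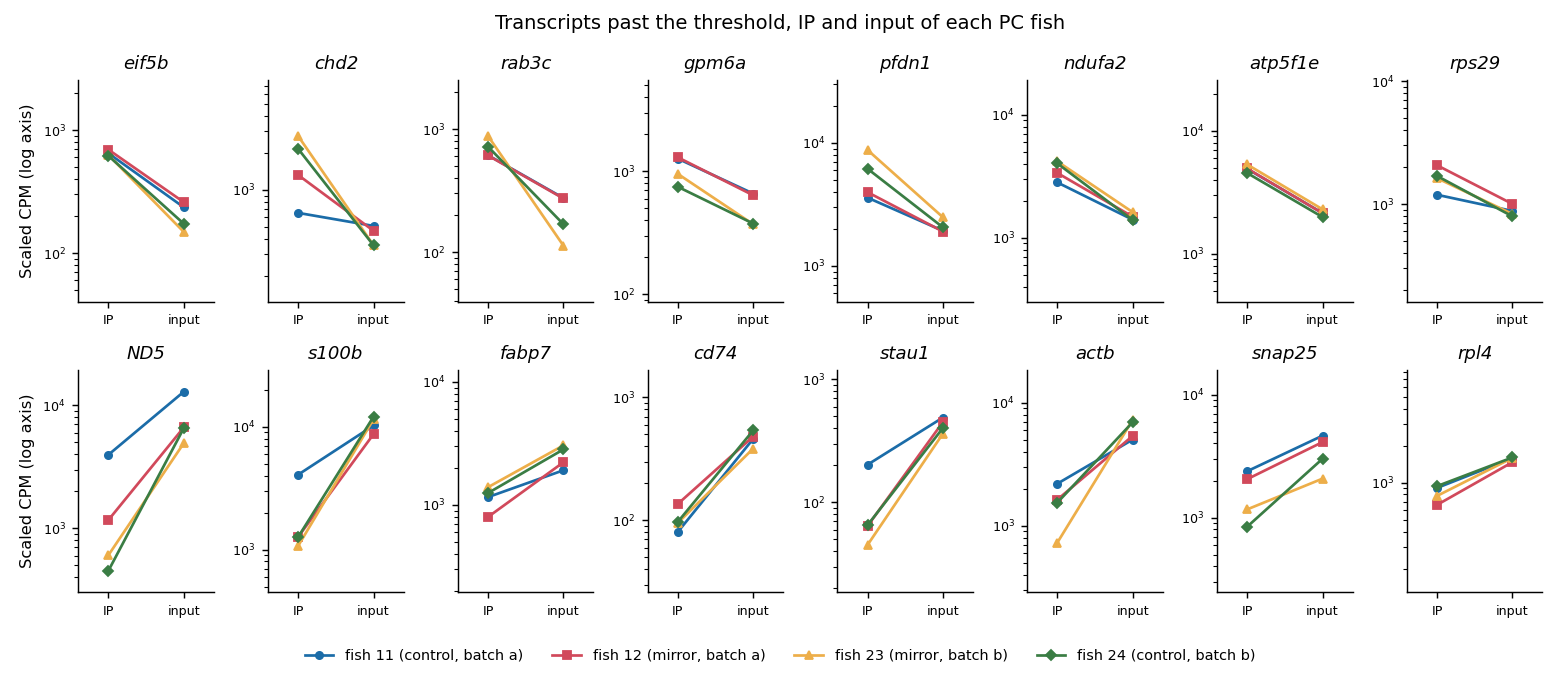
Scaled CPM of 16 genes past the threshold in the IP (left) and input (right) library of each PC fish, on log axes that span the same ratio in every panel. The upper row shows genes higher in IP and the lower row genes lower in IP. Lines join the libraries of a fish, and in each panel all 4 lines slope the same way.

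The machinery of translation gave mixed results. All 68 cytosolic ribosomal protein genes were abundant, and 5 passed, a smaller share (7.35%) than over all abundant loci, with a median log2 fold change of 0.06. Fish differed in this, with medians of -0.28, 0.18, 0.07 and 0.34 in fish 11, 12, 23 and 24. Rps29, a small-subunit protein, had 1191, 2069, 1626 and 1694 scaled CPM in IP and 879, 1004, 831 and 795 in input. It rose in all 4 fish without overlap (0.89 ± 0.19, adjusted p = 0.0208). Rpl4, a large-subunit protein, had 904, 658, 778 and 935 scaled CPM in IP and 1577, 1463, 1585 and 1599 in input. It fell, as did rps2, rplp0 and rpl7a (-0.94, -0.98, -0.68 and -0.71 in the order rpl4, rps2, rplp0 and rpl7a), rpl7a being named after its value was seen. Rps29 and rpl4 did not pass without fish 12 (adjusted p = 0.0885 and 0.0615), rps2 not without fish 23 (adjusted p = 0.0513), and rplp0 and rpl7a not without any 1 of the 4 fish (adjusted p up to 0.160 and 0.141). The message for S6 itself, rps6, was level, with 985, 1872, 2973 and 2296 scaled CPM in IP and 1696, 1902, 2002 and 1793 in input (0.03 ± 0.24, adjusted p = 0.941). As a share of all counts, ribosomal protein genes took 5.56%, 10.2%, 13.5% and 15.2% in IP and 5.55%, 6.78%, 8.84% and 7.88% in input. This share was higher in 4 of 4 fish, only marginally in fish 11, and unlike the fold changes it is affected by the smaller mitochondrial share of IP libraries.

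Of 35 matched initiation factor genes only 6 were abundant. Among these 6, 2 passed as higher in IP and none as lower (33.3% called, against 17.8% over all abundant loci; median 0.79). Both, eif5b and eif3j, met the abundance minimum only through their IP levels, so this share and median do not speak for the list. Eif5b, the GTPase that joins the ribosomal subunits at the start codon, had 649, 694, 628 and 618 scaled CPM in IP and 236, 260, 149 and 173 in input. Its IP values differed little between fish, and no input came near them (1.70 ± 0.28, adjusted p = 0.0114). Eif3j, a loosely bound subunit of the eIF3 complex, rose by 1.17 ± 0.30 (adjusted p = 0.0366), a call lost without fish 11 or fish 12 (adjusted p = 0.0620 and 0.137). Eif5a (0.83 ± 0.26, adjusted p = 0.0610) and eif2s2 (0.76 ± 0.26, adjusted p = 0.0721) had positive values in 4 of 4 fish and did not pass. Eif1ax, which helps the small subunit scan for the start codon, had 340, 604, 1.01 and 282 scaled CPM in IP and 624, 604, 572 and 703 in input. Fish 12 was level and fish 23 close to 0 in IP (-1.75 ± 1.27, adjusted p = 0.338). Eif3g, of the eIF3 complex, was at -0.02 ± 0.29 (adjusted p = 0.977). Of 4 abundant elongation and release factor genes, 1 was called (25%, against 17.8% over all abundant loci). This was eef1g, a subunit of the factor that recharges eEF1A, which fell (-1.0 ± 0.24, adjusted p = 0.0328). It did not pass without fish 12 (adjusted p = 0.0506) or fish 23 (adjusted p = 0.0666). Mrps18c, which encodes a protein of the mitochondrial ribosome and is made in the cytosol, had 310, 286, 1452 and 1247 scaled CPM in IP and 154, 218, 227 and 204 in input. The difference was far larger in both fish of batch b (1.68 ± 0.46, adjusted p = 0.0420; not past the threshold without fish 11 or fish 23, adjusted p = 0.0519 and 0.0948).

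Markers of radial glia and astrocytes were lower in IP. Of 8 matched markers 4 were abundant, and all 4 were lower in 4 of 4 fish. Of these, 3 passed (75% called, against 17.8% over all abundant loci). The median was -2.37, against -0.06 over all abundant loci. S100b, a calcium-binding protein of astrocytes and radial glia, had 4069, 1270, 1074 and 1268 scaled CPM in IP and 10214, 8694, 11499 and 12057 in input. The groups were far apart, fish 11 being the least reduced (-2.71 ± 0.41, adjusted p = 0.0114). Fabp7, the fatty acid-binding protein of radial glia, had 1157, 798, 1393 and 1248 scaled CPM in IP and 1912, 2220, 3046 and 2826 in input (-1.13 ± 0.18, adjusted p = 0.0114). Its groups did not overlap. Atp1b4, of the family of Na,K-ATPase beta subunits, fell by 2.02 ± 0.36 on the log2 scale (adjusted p = 0.0121). Slc1a2, the main glutamate transporter of astrocytes, had 607, 4.59, 110 and 77.5 scaled CPM in IP and 792, 1118, 508 and 746 in input, a spread in IP too wide for its fold change of -3.03 ± 1.12 to pass (adjusted p = 0.0860). The summed level of the 8 markers was 1780 to 3644 CPM of all counts in IP and 6874 to 11297 in input.

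Among markers of other non-neuronal cells, cd74, the invariant chain of antigen presentation, had 80.6, 136, 95.4 and 97.2 scaled CPM in IP and 460, 481, 384 and 539 in input. It fell in every fish without overlap (-2.20 ± 0.31, adjusted p = 0.0110). The 2 other abundant genes of the immune list, tmsb4x and srgn, did not pass (adjusted p = 0.192 and 0.267), and csf1r, ptprc, cxcr4, mpeg1 and tyrobp, which mark microglia and blood leukocytes, were at 0 counts in all 4 IP libraries. They were low in input too, with 0 to 12 counts of tyrobp, 5 to 26 of mpeg1, 6 to 58 of cxcr4, 22 to 61 of csf1r and 34 to 100 of ptprc. These are 5 of 15 list genes, and over all loci seen in every input 8609 of 23127 were at 0 in all IP libraries. Other members went both ways by CPM. Spi1 and aif1l were higher in IP in fish 11, fcer1g in fish 23, ctsd in fish 24 and grn in fish 23 and 24. Each of these was lower in the remaining fish, and psap and lcp1 were lower in every fish. All of them were named after their values were seen. Over its 15 matched genes the immune list summed to 3120 to 6019 CPM in IP and 4475 to 7036 in input, higher in IP in 2 of 4 fish, and most of this was tmsb4x, which neurons also express. The 11 myelin and oligodendrocyte markers together had 164 to 686 CPM in IP and 261 to 784 in input, lower in 4 of 4 fish. Not every member followed this sum. Mag was lower by CPM in IP in fish 11 and 12 and higher in fish 23 and 24. Myrf, a transcription factor of myelinating oligodendrocytes, had 50.9, 40.0, 57.7 and 36.5 CPM in IP and 23.4, 25.9, 16.1 and 17.4 in input, without overlap. Both genes lay below the abundance minimum, so no fold change is given, and both were named after their values were seen.

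Gpm6b, a proteolipid of glia and neurons, had 605, 114, 99.5 and 76.5 scaled CPM in IP and 770, 616, 471 and 544 in input, with fish 11 again the least reduced (-1.99 ± 0.46, adjusted p = 0.0278; 0.0602 without fish 12 and 0.0670 without fish 23). Its neuronal relative gpm6a moved the other way, with 1267, 1299, 953 and 748 scaled CPM in IP and 659, 639, 371 and 376 in input. Every fish was higher in IP by a similar amount (1.08 ± 0.21, adjusted p = 0.0172; 0.0506 without fish 12), and gpm6a was named after its value was seen. Myoglobin (mb), an oxygen-binding protein of muscle, had 134, 46.3, 673 and 149 scaled CPM in IP and 493, 664, 950 and 762 in input (-2.14 ± 0.54, adjusted p = 0.0365; 0.0604 without fish 11 and 0.0506 without fish 12). Fish 23 was the highest in both fractions. The 4 matched skeletal muscle genes together had 526, 386, 784 and 144 CPM in IP and 323, 431, 769 and 538 in input. This sum was higher in IP in 2 of 4 fish. Of these genes, myl1 had 2846, 2393, 1438 and 0 counts in IP and 729, 712, 1419 and 26 in input. Both matched genes of the red cell list, fech and nt5c3a, neither of them a globin, had 0 counts in all IP libraries. In the inputs fech had 25 to 58 counts and nt5c3a 219 to 397. Over all loci seen in every input, 8609 of 23127 were likewise at 0 in all IP libraries. The 13 endothelial and mural markers summed to 6.82 to 75.4 CPM in IP and 66.2 to 94.2 in input.

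Of 15 matched pan-neuronal genes 11 were abundant, 1 rose and 2 fell (27.3% called, against 17.8% over all abundant loci). Their median was -0.45, and it was -0.48, -0.39, -0.41 and -0.11 in fish 11, 12, 23 and 24. The summed level of 6235 to 7006 CPM in IP lay within the range of 5203 to 7583 CPM in input. Snap25, a SNARE protein of synaptic vesicle fusion, had 2379, 2050, 1164 and 842 scaled CPM in IP and 4630, 4106, 2070 and 3004 in input. Levels varied between fish in both fractions, so the groups overlapped, but snap25 fell within each fish (-1.15 ± 0.22, adjusted p = 0.0157). Rtn1, a reticulon of the neuronal endoplasmic reticulum, fell by 1.38 ± 0.30 on the log2 scale (adjusted p = 0.0221; 0.0602 without fish 12). Sncb, beta-synuclein of presynaptic terminals, rose by 0.66 ± 0.17 (adjusted p = 0.0365), with 3515, 2593, 2215 and 2817 scaled CPM in IP and 2240, 1968, 1308 and 1591 in input. The groups met at their edges, and the call did not survive the loss of any 1 fish (adjusted p 0.0567 to 0.186).

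Rab3c, a small GTPase of synaptic vesicles, was the second-highest named call, with 614, 611, 880 and 721 scaled CPM in IP and 276, 273, 113 and 169 in input. Batch b showed the larger difference, mainly through its lower inputs (1.84 ± 0.39, adjusted p = 0.0204). Among genes of secretory granules, chromogranin A (chga) had lower values in 4 of 4 fish (-0.91 ± 0.38, adjusted p = 0.122) and chromogranin B (chgb) higher values in 3 of 4 (0.55 ± 0.41, adjusted p = 0.354), and neither passed. The feeding-related neuropeptide gene npy had 138, 324, 784 and 628 scaled CPM in IP and 260, 346, 397 and 343 in input. It was lower in IP in batch a and higher in batch b (0.22 ± 0.39, adjusted p = 0.722).

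The highest fold change among named calls was that of chd2, a chromatin remodeller whose loss causes epilepsy in humans. It had 651, 1322, 2739 and 2157 scaled CPM in IP and 510, 465, 354 and 354 in input, and the difference was smallest in fish 11 and largest in fish 23 (1.87 ± 0.43, adjusted p = 0.0278; 0.0629 without fish 23). Rnf208, a RING-type ubiquitin ligase, was more even, with 750, 667, 583 and 451 scaled CPM in IP and 263, 233, 148 and 174 in input (1.60 ± 0.28, adjusted p = 0.0121). Pfdn1, a subunit of prefoldin, which hands new actin and tubulin chains to a chaperonin, had 3591, 3979, 8764 and 6171 scaled CPM in IP and 1931, 1906, 2488 and 2060 in input. No IP value overlapped the inputs (1.34 ± 0.24, adjusted p = 0.0121). Lsm6, of a ring that binds U6 RNA, rose by 1.18 ± 0.20 (adjusted p = 0.0114), and sem1, a small subunit of the proteasome lid, by 0.90 ± 0.18 (adjusted p = 0.0177; 0.0506 without fish 12). Lamtor4, of the Ragulator complex that anchors mTORC1 to lysosomes, rose by 1.31 ± 0.31 (adjusted p = 0.0322; 0.0506 without fish 12 and 0.0718 without fish 23). Polr2k, a subunit shared by nuclear RNA polymerases, rose by 1.26 ± 0.36 (adjusted p = 0.0490; 0.0957 without fish 11 and 0.0878 without fish 23).

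At the low end, actb, cytoplasmic beta-actin, had 2197, 1630, 729 and 1542 scaled CPM in IP and 5018, 5381, 7260 and 6953 in input. The groups were well separated (-2.09 ± 0.36, adjusted p = 0.0115). Actb was the 1 call among 11 abundant cytoskeleton genes (9.09%, against 17.8% over all abundant loci), whose median was -0.58. Stau1, which binds double-stranded RNA and carries messages into dendrites, had 203, 64.3, 45.1 and 65.3 scaled CPM in IP and 490, 450, 362 and 403 in input (-2.44 ± 0.40, adjusted p = 0.0114). Fish 11 was again the least reduced. Ccng1, cyclin G1, a target of p53, had 455, 587, 472 and 504 scaled CPM in IP and 1508, 1376, 1487 and 1680 in input (-1.59 ± 0.19, adjusted p = 0.0106). It was least reduced in fish 12, at -1.23 on the log2 scale against -1.74 to -1.65 in the others. Itm2a, a transmembrane protein with a BRICHOS domain, fell by 1.58 ± 0.30 on the log2 scale (adjusted p = 0.0165). Hsp90ab1, the constitutive cytosolic HSP90, fell by 1.14 ± 0.23 (adjusted p = 0.0180; 0.0506 without fish 12). It was the 1 call among 2 abundant chaperone genes (50%, against 17.8% over all abundant loci).

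Loci with a gene symbol account for 33 of the higher and 27 of the lower calls. Of the other 28 higher and 36 lower loci, 24 and 32 are annotated by a locus number alone, and no gene name was available for them in the sources used here. A pair of unannotated loci on opposite strands, at 27477167 to 27483312 and 27481875 to 27483312 of the same chromosome, took 5.31%, 2.47%, 1.17% and 1.01% of the counts in IP and 6.03%, 0.0809%, 5.72% and 0.0540% in input. The inputs of fish 11 and 23 were thus high and those of fish 12 and 24 near 0, and the loci overlap. Without this pair there were 144 calls, again 61 higher and 83 lower, and all 60 named calls were kept.

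The length of genome that a gene covers, from its first to its last base, moved weakly with its fold change. In 4 groups of 161 or 162 annotated loci from the shortest to the longest span, the median log2 fold changes were 0.17, -0.07, -0.10 and -0.17. The shortest group, of up to 2495 bases, held 20 higher and 5 lower calls, and the longest, from 7849 bases, 14 higher and 17 lower. Over 647 loci Spearman's rho between fold change and span was -0.173, and that between mean level and span was -0.187. Both are descriptions across loci that share the same 8 libraries. Many nuclear respiratory chain genes are short, ndufa2 and atp5f1e covering 1542 and 1565 bases, while chd2 covers 27928. The part of span in the results above was not tested.

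Most genes that report recent activity or transmitter identity lay below the abundance minimum, and their IP counts were too scattered for a fold change. All 22 matched immediate early genes had counts in input, 20 were at 0 in at least 1 IP library and 5 in all 4 (dusp1, fosl1, gadd45g, klf4 and nr4a2). Over the 17185 loci that passed a filter on low counts, 14270 were at 0 in at least 1 IP library and 4060 in all 4, which are similar shares. Egr1, a transcription factor induced by neuronal firing, had 854, 843, 0 and 0 counts in IP and 278, 1033, 1410 and 622 in input. It was thus present in both IP libraries of batch a and at 0 counts in both of batch b, whatever the treatment. By CPM egr1 was higher in IP than in input in both fish of batch a. Npas4, an activity-dependent factor of neurons, had 588, 63, 0 and 92 counts in IP and 256, 495, 505 and 375 in input. By CPM npas4 was higher in IP in fish 11 and lower in the other fish. The summed level of the 22 genes was 630, 400.1, 73.0 and 484 CPM in IP and 304, 407, 411 and 486 CPM in input, with fish 23 far below the rest.

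Markers of glutamate neurons summed to 451, 249, 25.4 and 180.2 CPM in IP and to 677, 719, 478 and 609 in input, without overlap. Neurod1, a transcription factor of glutamate neurons, had 1179, 934, 0 and 203 counts in IP and 2705, 5103, 2993 and 2372 in input. The list of GABA and glycine neuron genes, which also holds receptor subunits, summed to 701, 498, 211 and 480 CPM in IP. In input it summed to 371, 459, 329 and 395, and here 3 of 4 fish were higher in IP. Gabrd, the delta subunit of extrasynaptic GABA receptors, made up much of this, with 1381, 1579, 1405 and 1120 counts in IP and 472, 2903, 1906 and 1080 in input. The inputs were deeper than the IP libraries, and by CPM gabrd was higher in IP in every fish. Other members differed, so the sum does not speak for the list. Gad1 had 76, 85, 4 and 183 counts in IP and 284, 448, 361 and 259 in input. Gad2 had 634, 38, 197 and 355 in IP and 993, 1790, 966 and 764 in input. By CPM gad1 was higher in IP in fish 24 and lower in the other fish. Gad2 was level in fish 11, higher in IP in fish 24 and lower in fish 12 and 23. Dlx2 was at 0 in every IP library, while glrb was higher by CPM in every fish. None of these lists had an abundant member, and no test was made of the sums. Fish 23, lowest in each sum, was also the IP library with the fewest loci.

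Over all 17185 loci that passed a filter on low counts, 25 passed the test (0.145%, 13 higher and 12 lower; 5997 at an unadjusted p under 0.05). Other tests gave 4970 to 11821 calls on the same loci, nearly all lower in IP, so neither the count nor its direction is settled outside the abundant set, and no fold change is given from it. S100b, ND5, atp5mf, pfdn1, atp5f1e, ndufa2, ND4L, actb and ndufa1 were among the 25, and so were COX1 and CYTB, which had not passed among the abundant loci.

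Mirror exposure was set against the control condition within PC as the change in the IP to input difference. No abundant locus passed (0 of 697, 0%; 11 at an unadjusted p under 0.05; 0 by limma and DESeq2). With 2 fish per treatment this comparison can see only large and even effects. Without fish 12, 5 loci passed, and without fish 23, 2 did, each fit leaving 1 mirror fish that is assumed to vary like the others. The named gene with the smallest p was caprin1, an RNA-granule protein that promotes translation of neuronal messages. Its log2 difference of IP and input was -2.44 and -6.20 in the mirror fish and -1.16 and -1.48 in the controls (mirror minus control -3.00 ± 1.22, adjusted p = 0.999). The IP library of mirror fish 23 held 78 caprin1 counts. Ckb, brain creatine kinase, had -1.31 and -1.87 in mirror fish and 0.38 and -0.28 in controls (-1.64 ± 0.68, adjusted p = 0.999).

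Whether PC differed from MC was tested over 496 loci that are abundant in the 16 libraries of both species, as PC minus MC in the difference between IP and input. None passed by edgeR (0%; 76 at an unadjusted p under 0.05) or by limma, and 39 did by DESeq2, 21 higher and 18 lower in PC. Leaving out any 1 of the 8 fish also gave 0. Among the named genes with the smallest p, ND1, CYTB and rps18 had a negative mean in both species, closer to 0 in PC. ND1 averaged -0.66 ± 0.45 in PC fish and -2.79 ± 0.65 in MC fish (mean ± SD of 4 fish; 2.13 ± 0.45, adjusted p = 0.0934). CYTB averaged -1.05 ± 0.12 in PC and -3.25 ± 1.06 in MC (2.17 ± 0.52, adjusted p = 0.140). Over the 8 mitochondrial genes the median difference was -1.40 in PC and -4.23 in MC, and 0 of 8 passed the test of the species difference.

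Rpl39 and syt1 ran in opposite directions in the 2 species, while clip3 had a positive mean in both, and none of them passed. Rpl39, a protein of the large ribosomal subunit, differed by 0.23, 0.81, 0.61 and 0.98 in PC and by -2.0, -1.53, -2.39 and -0.71 in MC (2.32 ± 0.45, adjusted p = 0.0934). Syt1, the calcium sensor of transmitter release, averaged -0.49 ± 0.16 in PC and 1.34 ± 0.82 in MC (-1.83 ± 0.51, adjusted p = 0.221). Clip3, a microtubule-associated protein of neurons, averaged 0.59 ± 1.08 in PC and 3.49 ± 0.70 in MC (-2.91 ± 0.62, adjusted p = 0.0934). The 68 ribosomal protein genes had a median of 0.02 in PC and -0.64 in MC, against -0.05 and -0.27 over the 496 loci. The MC IP libraries of batch a, fish 9 and 10, held 1872019 and 2715091 counts on 3714 and 4607 loci, fewer than any PC library, and the part of this in the species values was not tested.

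**Figure D5:**
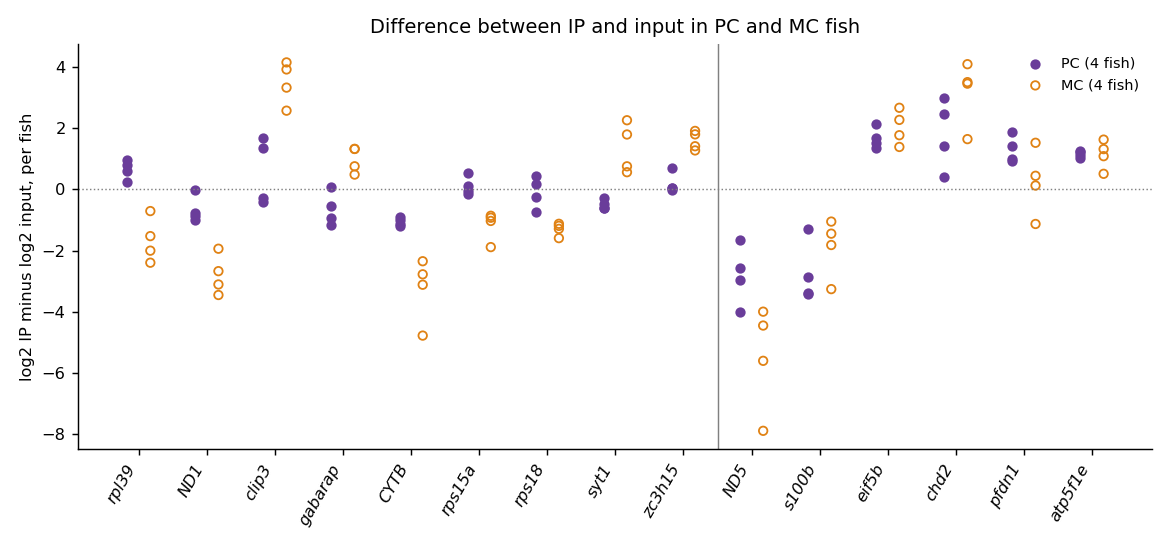
Difference of log2 scaled CPM between IP and input in each PC fish (filled) and each MC fish (open). Left of the line are named genes with small p for the species difference, none of which passed after adjustment, and right of it are genes that were called in PC. For rpl39 the PC values lie at 0.23 to 0.98, all above those of MC.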

How the data were processed

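Each of the 8 PC libraries is a column of raw counts per assembled locus that the authors deposited in 1 table of 61384 loci, with gene symbols where the assembly matched the annotation. Reads were trimmed with cutadapt, aligned with HISAT2 and assembled with StringTie, per the submitters' processing notes. The sources used here name no version, strandedness or genome build. The authors' deposited DESeq2 tables were not used, and some single-gene results are not reported here.

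Counts on loci with a mean log2 CPM above 7 were tested with edgeR 4.0.16 (R 4.3.3), with TMM factors from those loci, a term for each fish and one for fraction, a prior count of 2 and Benjamini-Hochberg adjusted p under 0.05. The SE is the fold change divided by the square root of F. It comes from the fit, which shares variance across loci, and does not measure the spread between fish alone. Library measures had an exact sign-flip test over fish. IP and input of a number come from 1 fish per the labels, and their deviations from group means correlated at 0.431, 0.341, 0.368 and 0.330. The mirror and species comparisons used interaction terms. limma 3.58.1, DESeq2 1.42.0 and other scalings, filters, batches and left-out fish were tried as alternatives. Scripts were tested on simulated data.

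Library totals bound the counting error: PC IP libraries held 4250470 to 11186928 counts and inputs 10940859 to 23594320. The libraries and gene lists were chosen with earlier results of these data known. Named genes are the 15 highest and 15 lowest called genes with a symbol and 1 sign in all fish, the 4 list members with the smallest p, single genes listed by hand, the 10 most abundant per fraction, and the 10 smallest p of the mirror and species comparisons; others are said to be named after their values were seen.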

Additional observations from a re-analysis of the deposited data

Results flagged for a closer look

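In 2 of 108 groups of 4 PC fish examined, 1 fish stood apart from the other 3, and chance alone does this in about 1 group in 20. For ccng1 the log2 difference between IP and input was -1.23 in fish 12, against -1.74 to -1.65 in the other 3 fish. For snap25 it was -1.84 in fish 24, against -1.0 to -0.83 in the others. Both genes were lower in IP in 4 of 4 fish.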

How the results depend on the processing

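Among the 697 abundant loci the 124 calls became 241 with DESeq2, 0 from the fish of batch a, 38 from those of batch b, and 0 to 120 when 1 fish was left out. Without the replicate block, that is, ignoring the pairing by fish, there were 174, of which 116 were shared with the paired fit, and 1 of the 60 called named genes was lost. The other alternatives gave 92 to 152 calls: with abundance set by the inputs alone 82 were higher and 29 lower, and at a minimum of 6 or 8 on the log2 scale 58 and 55 were higher and 34 and 90 lower. None of the 60 called named genes turned its direction under any alternative in which it was tested. With abundance set by the inputs alone, 42 of them were kept and 12 lost. Rab3c, eif5b, mrps18c, rnf208, polr2k and eif3j were not tested in that setting. Over all 17185 tested loci the 25 calls became 4970 without the replicate block, 6619 with limma on within-fish differences, 6671 with limma-voom and 11821 with DESeq2. Other settings tested other sets of loci. There were 61 calls within batch b (of 18813 tested) and 73 with no filter on low counts (of 46007). Leaving out 1 fish gave 10 to 43 calls (of 17328 to 18017). The mirror comparison had 0 to 5 calls with 1 fish left out. The species comparison had 4 calls without the replicate block and 39 with DESeq2. The difference in detected loci, IP minus input, was -24198.25 as deposited and -21206.5 at equal totals. The cause of these shifts was not tested. At equal totals 132 abundant loci were called, 123 of them shared with the 124. The median SD of log2 levels was 0.58 in IP and 0.18 in input, and most loci below the abundance minimum had 0 counts in at least 1 IP library.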

Other observations

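Below the abundance minimum, 2312 loci had a count in all 8 PC libraries, and the 4 IP values lay above the 4 inputs at 206 of them (8.91%) and below at 195 (8.43%), by CPM of all counts. The genes named here were chosen after their values were seen, and no test was made. Among 71 gene list members in this set, 7 were higher without overlap. Nmb, the peptide neuromedin B, had 89.0, 51.0, 169.8 and 175.0 CPM in IP of fish 11, 12, 23 and 24 and 11.2, 7.66, 11.6 and 27.4 in input. Fosl2, an AP-1 transcription factor, had 74.6, 85.7, 50.3 and 60.2 CPM in IP and 20.6, 24.8, 29.9 and 27.4 in input, in both mirror and control fish. Myrf, described with the myelin markers, and glrb, the beta subunit of glycine receptors, were also higher in every IP library.

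Another 6 of the 71 list members were lower without overlap, a share close to the 8.43% over all 2312 loci. Psap, the precursor of lysosomal saposins, had 91.4, 40.9, 47.4 and 77.6 CPM in IP and 190, 152, 148 and 211 in input. Sox2, a transcription factor of neural progenitors and radial glia, had 9.33, 21.4, 0.626 and 10.4 CPM in IP and 43.4, 38.1, 33.3 and 33.5 in input.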
